A study of Mus musculus with 27 samples.

Results

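The 5 genes described here are Lrp8, Pex5l, Runx1t1, Ppp1r1a and Gip. They were selected on their read counts at embryonic stage E15.5, which were lower in whole pancreas of Nkx2.2 mutant embryos than in control pancreas, so their E15.5 values are a description and carry no test. They are 5 of 55536 genes in the E15.5 count table, and each is also listed in the islet table of 26487 genes and in the progenitor table of 39017 genes. The rule uses the E15.5 columns and not the islet or progenitor libraries, and the question put to them was whether these genes were lower there as well.

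The study concerned the SD domain of the homeodomain transcription factor Nkx2.2, a stretch outside the homeodomain that proteins of the NK2 family share. Whole E15.5 pancreas came from 3 wildtype controls and 4 embryos with the SD-domain mutation (SDmut). Adult islets came from mice of 8 weeks (2 controls and 3 mice with the mutation in beta cells, betaSDmut) and of 4 weeks (2 controls and 2 libraries labelled betaKO, a deletion of Nkx2.2 in beta cells). The promoter that restricts the 2 adult alleles to beta cells is not named in the labels, and the 4-week islets were handled by the protocol of an earlier publication. Their molecule is given as genomic DNA, but the columns that bear their names hold RNA counts of genes. Motor neuron progenitors (pMN) were made from mouse embryonic stem cells that carry a FLAG-tagged transgene inducible with doxycycline. At day 4 of differentiation, cells with the wildtype transgene were profiled untreated (pMN, 3 libraries) or after about 16 h of doxycycline at 1 µg/ml (iNkx2.2, 3 libraries), and cells with the SD-mutant transgene after the same treatment (iSDmut, 2 libraries). Uninduced cells of the iSDmut line were not analysed here, so each progenitor comparison with iSDmut is also one between separate lines. No library had doxycycline without an inducible transgene, so drug and transgene cannot be told apart in comparisons with pMN. Nkx2.2 binding was mapped by chromatin immunoprecipitation (ChIP) in 2 samples of MIN6, a mouse beta-cell line. The labels do not say that the replicates came from separate animals or cultures in every group, and p-values measure only the spread between these libraries.

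Total counts ran from 38447596 to 41840638 in the E15.5 libraries, from 12398041 to 32385406 in the islet libraries and from 17757991 to 46840701 in the progenitor libraries. Nkx2-2 transcript did not mark the mutants: its log2 fold change was -0.10 in E15.5 SDmut (SE 0.224, edgeR adjusted p = 1.00), -0.10 in betaSDmut islets (SE 0.128, edgeR adjusted p = 0.680) and -0.18 in the libraries labelled betaKO (SE 0.237, edgeR adjusted p = 0.779). Counts per gene do not show whether the SD mutation was present or whether a deleted exon was lost, so these values check no label. In progenitors Nkx2-2 was at 5.40 to 11.6 CPM without doxycycline, 343 to 378 CPM in iNkx2.2 and 245 to 248 CPM in iSDmut. Here CPM is counts per 1e+06 counts after TMM scaling of the library sizes. Skeletal muscle markers were high in 2 E15.5 libraries, control 3 (5798 CPM summed over 10 genes) and SDmut 2 (6598 CPM), against 14.7 to 85.9 CPM in the others. All 12 acinar markers were found in every E15.5 group, with sums of 13137 to 40254 CPM.

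Nkx2.2 is required for beta-cell formation and later for beta-cell identity, acting as an activator or as a repressor by way of corepressors. Of the 5 genes, Lrp8 encodes a receptor of the LDL-receptor family that binds reelin and apolipoprotein E and signals through the adaptor Dab1. Pex5l encodes a relative of the peroxisomal import receptor Pex5 that binds HCN channels, the hyperpolarization-activated cation channels, and sets their trafficking and gating. Runx1t1 encodes a transcriptional corepressor that recruits histone deacetylase complexes. Ppp1r1a encodes an inhibitor of protein phosphatase 1 that is active once protein kinase A has phosphorylated it, and Gip encodes the incretin hormone of the intestinal K cell.

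The genes lie on 4 chromosomes of GRCm38 (mm10, the build that the labels name), with gene models from GENCODE. Lrp8 (ENSMUSG00000028613) is at chr4:107802261-107876840 on the plus strand, Pex5l (ENSMUSG00000027674) at chr3:32949408-33143247 on the minus strand, and Runx1t1 (ENSMUSG00000006586) at chr4:13743436-13893649 on the plus strand. Ppp1r1a (ENSMUSG00000022490) is at chr15:103530279-103538003 on the minus strand and Gip (ENSMUSG00000014351) at chr11:96024545-96030831 on the plus strand. In MIN6 cells the authors' final set of 6473 Nkx2.2 sites holds 1 site near or assigned to each of 4 of the genes, and none for Ppp1r1a. The 201 bases around each of these sites are shown because they are the kept sites that the authors joined to 3 of these genes, or that lay within 50 kb of one. They are written along the plus strand of GRCm38, and capitals mark AAGTG, the core that NK2 homeodomains bind, and GGCAAC or AGCAAC, all searched on both strands.
Lrp8 site, chr4:107746330-107746530: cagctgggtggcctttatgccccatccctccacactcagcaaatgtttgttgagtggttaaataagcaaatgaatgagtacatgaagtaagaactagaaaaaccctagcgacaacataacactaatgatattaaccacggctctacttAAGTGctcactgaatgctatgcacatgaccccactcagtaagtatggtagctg
Pex5l site, chr3:33001678-33001878: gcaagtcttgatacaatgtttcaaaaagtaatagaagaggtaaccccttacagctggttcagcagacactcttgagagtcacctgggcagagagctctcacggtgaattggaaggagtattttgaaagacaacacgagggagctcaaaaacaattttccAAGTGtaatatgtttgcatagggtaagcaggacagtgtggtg
Runx1t1 site, chr4:13460577-13460777: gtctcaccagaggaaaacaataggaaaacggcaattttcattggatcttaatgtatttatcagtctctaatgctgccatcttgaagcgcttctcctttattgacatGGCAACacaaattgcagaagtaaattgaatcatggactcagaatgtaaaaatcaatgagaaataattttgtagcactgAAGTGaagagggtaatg
Gip-side site, chr11:96065453-96065653: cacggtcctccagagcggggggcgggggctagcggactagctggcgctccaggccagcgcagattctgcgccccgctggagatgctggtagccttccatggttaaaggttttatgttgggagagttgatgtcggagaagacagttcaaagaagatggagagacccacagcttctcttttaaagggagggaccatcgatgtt

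The authors joined the first 3 of these sites to their genes, and none was at a promoter of the gene. The Lrp8 site lay outside the gene, 55.8 kb before its start, the Pex5l site in an intron 141 kb after the start, and the Runx1t1 site outside the gene, 283 kb before the start. The site on the Gip side was 41.0 kb from the start of Gip and 165 bp from the start of Ube2z, and the authors joined it to no gene of the set. By the authors' log2 CPM, a mean over the 2 ChIP samples, the Runx1t1 site was at 7.34 (rank 1666 of 6473), the Pex5l site at 6.65 (rank 3865), the Lrp8 site at 6.34 (rank 5269) and the Gip-side site at 6.07 (rank 6329). The median over all final sites was 6.82, so 1 of the 4 sites lay above it. The read counts in the 2 samples were 138 and 88 at the Runx1t1 site, 78 and 60 at the Pex5l site, 67 and 45 at the Lrp8 site and 56 and 37 at the Gip-side site.

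Within 50 kb of the gene body, 2 of the 5 genes (Pex5l and Gip) had a final site, against 31.9% of 21951 protein-coding genes. Events that the authors called but did not keep lay at chr3 33001954 and 33116093 in Pex5l, at chr4 13747912 in Runx1t1 and at chr15 103480396 beside Ppp1r1a, with 32 to 77 reads per sample. The first of these lies close to the kept Pex5l site, and their counts may share reads. The AAGTG core occurred once in the Lrp8, Pex5l and Runx1t1 windows, at 50, 61 and 86 bp from the centre, and not in the Gip-side window. It occurred in 40.7% of all final-site windows of this length. The longer form TNAAGTGG, present in 3.99% of the windows, was in none of the 4. GGCAAC occurred 9 bp from the centre of the Runx1t1 site, and neither it nor AGCAAC occurred in the other 3 windows, against 42.3% of all final-site windows with one or the other. These 2 hexamers were picked after their counts had been seen.

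**Figure D1:**
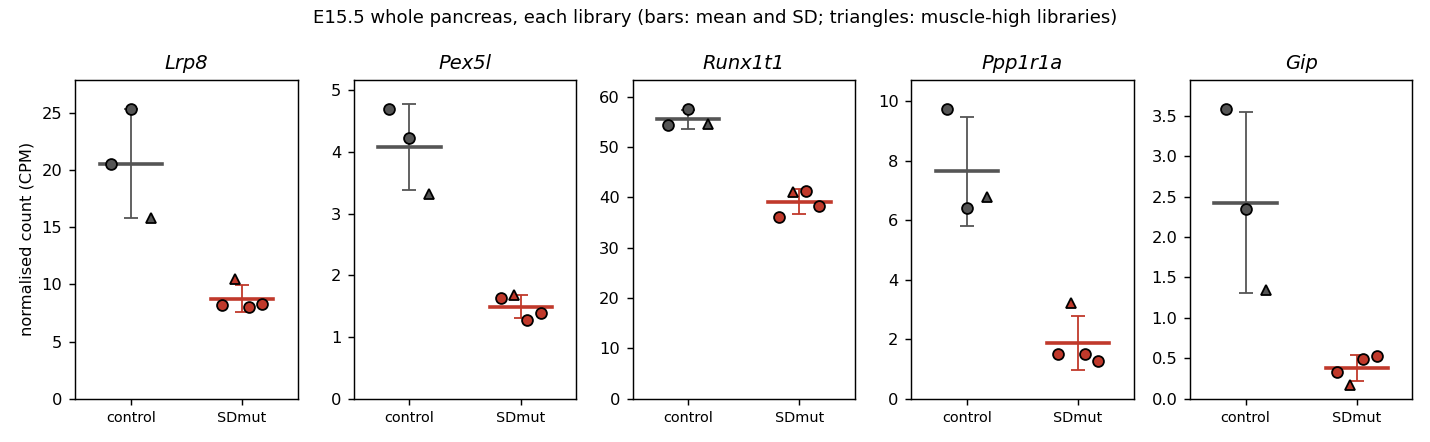
Normalised counts (CPM) of the 5 genes in each E15.5 pancreas library (points), with bars for the mean and SD of 3 controls and 4 SDmut embryos and triangles for the 2 libraries with muscle transcripts. For each gene all 4 SDmut libraries sit below the lowest of the 3 controls, which is how the genes were chosen.

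In E15.5 pancreas Ppp1r1a and Gip showed the largest differences of the 5, and Runx1t1, the gene with the highest counts, the smallest. Lrp8 measured 20.5, 25.4 and 15.8 CPM in controls 1 to 3 and 8.21, 10.5, 8.06 and 8.26 CPM in SDmut 1 to 4, a log2 fold change of -1.23. SDmut 2 stood above the other 3 mutants, which spanned 8.06 to 8.26 CPM. The 2 libraries with muscle transcripts, control 3 and SDmut 2, were the lowest control and the highest mutant for this gene, and without them the log2 fold change was -1.49. The part of muscle in the Lrp8 values was not tested.

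Pex5l counts were low. They came to 4.70, 4.22 and 3.32 CPM in controls and 1.63, 1.68, 1.27 and 1.40 CPM in SDmut, a log2 fold change of -1.45. The mutants spanned 1.27 to 1.68 CPM, below the lowest control. Runx1t1 was at 54.3, 57.6 and 54.6 CPM in controls and at 36.1, 41.1, 41.2 and 38.2 CPM in SDmut, a log2 fold change of -0.50. Controls and mutants each kept within a narrow band for this corepressor gene, and the bands did not meet.

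Ppp1r1a measured 9.74, 6.42 and 6.77 CPM in controls and 1.50, 3.22, 1.52 and 1.27 CPM in SDmut, a log2 fold change of -2.02. As for Lrp8, SDmut 2 was the highest mutant. For Gip the counts were 148, 95 and 52 in controls and 13, 7, 20 and 20 in SDmut, or 3.59, 2.34 and 1.35 CPM against 0.336, 0.166, 0.490 and 0.528 CPM. Its log2 fold change was -2.67, the largest of the 5, on the fewest counts. SDmut 2, the lowest Gip library, was also the one with intestinal transcripts: 8 intestinal markers summed to 208 CPM there, none of them at 0, against 21.6 to 34.4 CPM elsewhere.

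That no group overlapped is what the choice of genes fixes. Of 18723 genes tested in this comparison, 1.97% (369) were lower in all SDmut libraries than in all controls and 1.61% higher. edgeR called 1 gene (0.00534%) at an adjusted p under 0.05 and no gene as lower, with 475 genes (2.54%) at an unadjusted p under 0.05, and DESeq2 called 28. In the authors' deposited table, made with DESeq2, 26 of 22966 genes are called, 16 of them lower, and these 16 include the 5 genes. By adjusted p in the authors' deposited table, Pex5l, Lrp8 and Ppp1r1a stand at ranks 4, 5 and 6 of the lower genes, after Ins2, Ins1 and Glp1r, and Runx1t1 and Gip at ranks 8 and 9. The genes at the edge of that table's list were Gad1 and Airn, in the last places. That table covers the comparison whose counts chose the 5 genes, so their places in it are a description and no further support.

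The 4 libraries whose titles share 1 number (controls 1 and 2, SDmut 1 and 2) gave log2 fold changes of -1.29 for Lrp8, -1.43 for Pex5l, -0.54 for Runx1t1, -1.77 for Ppp1r1a and -3.55 for Gip. What that number stands for is not said in the labels. No marker gene of any cell type list was called by edgeR in E15.5 pancreas, so the following are values. The beta-cell list of 8 genes summed to 827, 376 and 293 CPM in controls and to 75.0, 56.4, 109 and 75.8 CPM in SDmut, with a negative log2 fold change for 7 of the 8 genes and a median of -1.32. Of the 8 pan-endocrine markers all 8 had a negative log2 fold change, with a median of -0.53, and their sum was 628 to 1127 CPM in controls against 494 to 737 CPM in SDmut. The neuron and Schwann cell list had the same median, -0.53, with 8 of 8 negative, and the acinar list (0.44), the delta-cell list (0.57) and the epsilon-cell gene Ghrl (1.34) were on the other side of 0. In whole pancreas fewer cells of a type and less RNA per cell cannot be told apart, and the part of these cell shares in the 5 genes was not tested. Over all 18723 genes the median log2 fold change was 0.01.

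Of the genes on 6 lists, drawn up around the 5 and for endocrine transcription factors, none was called by edgeR in E15.5 pancreas. The incretin and gut hormone list of 13 genes had the lowest median log2 fold change of the 6 lists, -0.49, and the list of protein phosphatase 1 and protein kinase A genes the one nearest to 0, -0.04. The reelin and LDL-receptor list (13 genes) had a median of -0.09 and the HCN and peroxisomal import list (8 genes) -0.06. The RUNX1T1 family and corepressor list (18 genes) had -0.13 and the endocrine transcription factors (18 genes) -0.31. Within the E15.5 table, the correlation of log2 CPM between pairs of the 5 genes ran from 0.773 to 0.969 over 7 libraries. After the group means were removed it ran from -0.446 to 0.692, so the tight pooled values rest on the group difference that chose the genes. The genes nearest to each of them in profile were Npy for Lrp8 (r = 0.980), Amigo2 for Pex5l (0.990), Ccnd2 for Runx1t1 (0.964), Mafa for Ppp1r1a (0.978) and Bicc1 for Gip (0.976), all over the same 7 libraries.

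In adult islets the 5 genes did not repeat the E15.5 pattern as a group. At 8 weeks 0 of the 4 that could be tested were called, where edgeR called 7.94% of all genes. At 4 weeks Ppp1r1a was lower in the libraries labelled betaKO and Pex5l was higher, where edgeR called 1.56% of all genes. Gip was at or near 0 counts in nearly all islet libraries and was not tested. The authors' FPKM values, which are per transcript length, gave the order of levels in 8-week control islets as Ppp1r1a 326 ± 8.72 FPKM (SD, n = 2), Pex5l 24.2 ± 1.87, Lrp8 16.9 ± 0.179, Runx1t1 5.62 ± 0.433 and Gip 0 in both. No neighbours in that order lay within the spread of these 2 libraries.

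**Figure D2:**
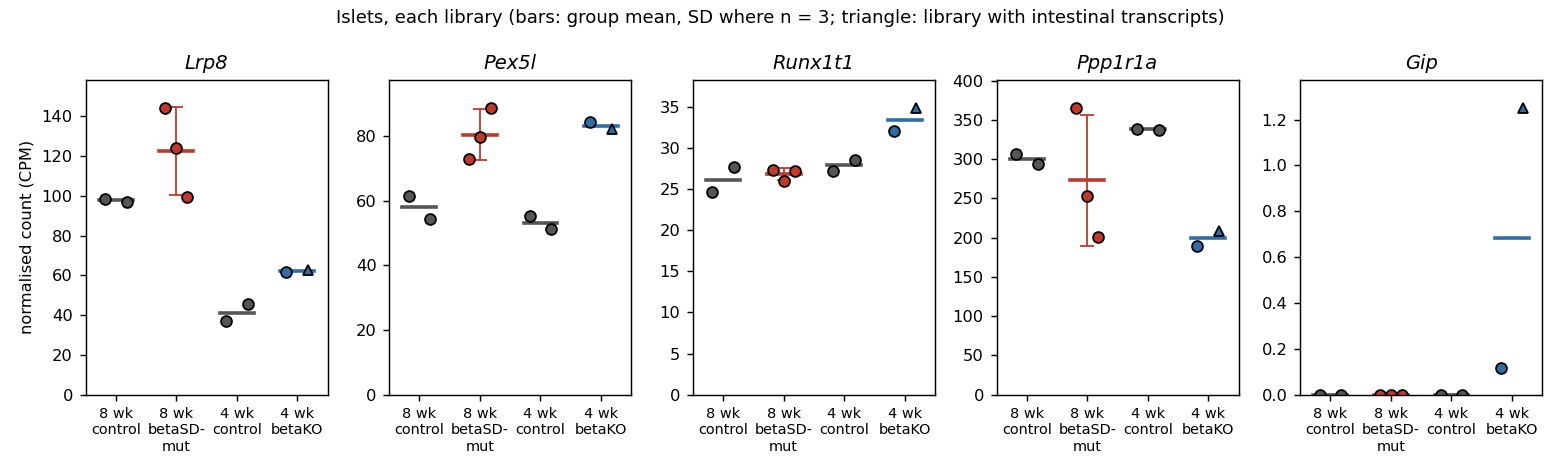
Normalised counts (CPM) of the 5 genes in each islet library, grouped as 8-week control, 8-week betaSDmut, 4-week control and the 4-week libraries labelled betaKO, with bars for the group mean (and SD where n = 3) and a triangle for betaKO 2, the library with intestinal transcripts. Ppp1r1a is at 190 and 209 CPM in betaKO against 339 and 337 CPM in its controls, and Pex5l is above its controls in both mutants.

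Lrp8, the reelin receptor, was higher in the mutant islets by value, but the difference passed the test at neither age. At 8 weeks it was at 98.6 and 97.0 CPM in controls and at 144, 124 and 99.5 CPM in betaSDmut, so betaSDmut 3 all but met the controls. The log2 fold change was 0.32 (SE 0.150, 95% interval -0.05 to 0.69, edgeR adjusted p = 0.251). At 4 weeks it was at 37.1 and 45.5 CPM in controls and at 61.6 and 62.7 CPM in betaKO, with no overlap, a difference of 0.59 on the log2 scale (SE 0.124, 95% interval 0.28 to 0.90, edgeR adjusted p = 0.106). Of 10 alternatives at 4 weeks, 1 called Lrp8. Control levels at 8 weeks lay above those at 4 weeks, and age and the handling of the islets cannot be told apart there. The authors' deposited table over 3 groups, whose controls have no stated age, shows no rise of Lrp8 in betaKO (-0.02 on the log2 scale). It gives 0.91 in betaSDmut and calls neither. The 95% interval at 8 weeks starts at -0.05, above the E15.5 log2 fold change. That value chose the gene and comes from whole pancreas, so it sets no size to look for in islets.

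Pex5l, the HCN channel subunit, was higher by value in both mutants, the opposite of its E15.5 direction. It was at 61.5 and 54.4 CPM in 8-week controls and at 72.8, 79.6 and 88.5 CPM in betaSDmut, or 0.47 on the log2 scale (SE 0.111, 95% interval 0.20 to 0.74, edgeR adjusted p = 0.0596). All 3 betaSDmut libraries exceeded both controls, and the call depended on the setting: 7 of 13 alternatives passed the threshold, with DESeq2 (adjusted p = 0.00535) and the acinar covariate (edgeR adjusted p = 0.0121) among them. At 4 weeks Pex5l rose from 55.1 and 51.1 CPM in controls to 84.2 and 82.2 CPM in betaKO, or 0.65 on the log2 scale (SE 0.0895, 95% interval 0.43 to 0.87, edgeR adjusted p = 0.0438). The authors' deposited table over 3 groups also calls Pex5l higher, by 0.51 in betaSDmut and by 0.61 in betaKO on the log2 scale, while the authors' deposited table over the 8-week groups does not call it (0.46). The 4-week call was lost without either control or either betaKO library (edgeR adjusted p from 0.0650 to 0.226), with the log2 fold change between 0.59 and 0.71.

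Runx1t1, the corepressor, differed little. Counts gave 24.6 and 27.7 CPM in 8-week controls and at 27.3, 26.0 and 27.2 CPM in betaSDmut, groups that overlapped, a log2 difference of 0.03 (SE 0.0870, 95% interval -0.18 to 0.24, edgeR adjusted p = 0.848). At 4 weeks it was at 27.2 and 28.6 CPM in controls and at 32.1 and 34.8 CPM in betaKO, or 0.26 on the log2 scale (SE 0.105, edgeR adjusted p = 0.328). The 8-week interval lies above the E15.5 value, -0.50. That value chose the gene and comes from whole pancreas, so it sets no size for islets.

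Ppp1r1a, the phosphatase inhibitor, was the one gene of the 5 that was called lower in an islet comparison. In 8-week islets it was at 307 and 293 CPM in controls and at 365, 253 and 201 CPM in betaSDmut, from above both controls to below both, and the log2 difference was -0.14 (SE 0.244, 95% interval -0.75 to 0.47, edgeR adjusted p = 0.751). At 4 weeks it fell from 339 and 337 CPM in controls to 190 and 209 CPM in betaKO, a 1.70-fold decrease (log2 fold change -0.76, SE 0.0877, 95% interval -0.98 to -0.55, edgeR adjusted p = 0.0331). That decrease was smaller than the E15.5 difference, whose log2 fold change was -2.02, though the difference between the 2 was not tested. The call was lost when either control or either betaKO library was left out (edgeR adjusted p from 0.0516 to 0.176), with the log2 fold change between -0.83 and -0.69 in those fits. It was also lost with total library sizes and in the fit of all 9 islet libraries (edgeR adjusted p = 0.0589 and 0.158). The authors' deposited table over 3 groups, whose controls have no stated age, gives Ppp1r1a a log2 fold change of -0.66 in betaKO and does not call it.

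Gip was not detectable in 7 of the 9 islet libraries. A count of 0 there allows up to 0.0926 to 0.188 CPM before scaling (3 counts of each library's total). The libraries labelled betaKO held 2 counts (0.118 CPM) in replicate 1 and 16 counts (1.25 CPM) in replicate 2, both above the 0 of their controls. In betaKO 2 the 8 intestinal markers summed to 740 CPM, with none at 0, against 63.2 to 110 CPM in the other islet libraries. Fabp1, Fabp2 and Apoa4, which encode lipid carriers of the absorptive cell, were at 139, 127 and 112 CPM in that library. The part of intestinal RNA in the Gip counts of betaKO 2 was not tested, and no fold is given for Gip in islets, where it did not pass the filter on low counts.

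**Figure D3:**
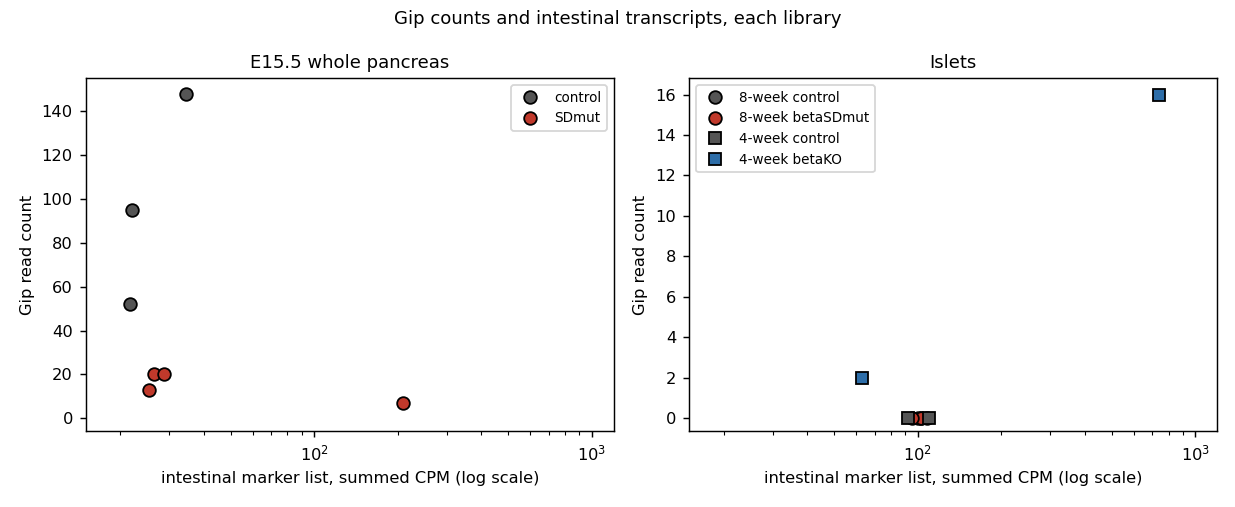
Gip read count of each E15.5 library (left) and islet library (right) against the summed CPM of 8 intestinal markers in the same library on a log axis, with groups set apart by colour or symbol shape. Among islet libraries betaKO 2 has the highest value on both axes, while the E15.5 library with the highest intestinal sum, SDmut 2, has the lowest Gip count, 7, of the 7 embryonic libraries.

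Set against all genes, the islet counts were as follows. At 8 weeks 0 of the 4 tested genes were called, where 7.94% of 15413 genes were (3.87% lower, 4.07% higher). At an unadjusted p under 0.05 edgeR gave 1 of the 4, Pex5l, where 25.7% of all genes reached it, and DESeq2 called 1, again Pex5l. In 4-week islets 2 of the 4 were called, 1 lower and 1 higher, where 1.56% of 14942 genes were (0.75% lower, 0.81% higher). Groups without overlap were common at this number of libraries: 22.7% of genes were lower and 23% higher without overlap at 8 weeks, and 24.3% lower and 23.2% higher at 4 weeks. Lrp8 and Pex5l were among the higher genes at both ages, Runx1t1 at 4 weeks, and Ppp1r1a among the lower genes at 4 weeks. The effects in betaSDmut and betaKO, each against its own controls, were compared over all 9 libraries. Allele, age and handling of the islets cannot be told apart in this comparison. edgeR called 1.21% of 15995 genes in it and none of the 4. None of the 4 reached an unadjusted p under 0.05 there, where 13.7% of genes did by edgeR, and none was called in any of the 15 alternatives, DESeq2 among them. The largest estimate was that of Ppp1r1a, 0.63 for betaSDmut minus betaKO (SE 0.317, 95% interval -0.11 to 1.36, edgeR adjusted p = 0.438). The intervals of the other 3 were -0.78 to 0.24 for Lrp8, -0.51 to 0.16 for Pex5l and -0.51 to 0.06 for Runx1t1.

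Exocrine RNA differed widely between islet libraries, though edgeR called no acinar marker, of 11 tested at 8 weeks and 12 at 4 weeks. The 12 acinar markers summed to 12515 and 7509 CPM in 8-week controls and to 1035, 1951 and 10160 CPM in betaSDmut, and to 10436 and 5599 CPM in 4-week controls against 38318 and 13289 CPM in betaKO. The groups overlapped at 8 weeks and did not at 4 weeks, and the median log2 fold change was -1.13 and 1.72. In betaSDmut 3, the library with the most acinar RNA of its group, Ppp1r1a and Lrp8 were lowest and Pex5l highest. The acinar covariate was the mean log2 CPM of the 12 markers, not their sum. With it the 8-week log2 fold changes were 0.05 for Lrp8, 0.64 for Pex5l and -0.58 for Ppp1r1a (edgeR adjusted p = 0.0704 for the last). The beta-cell list summed to 237619 and 242963 CPM in 8-week controls, 199515 to 220109 CPM in betaSDmut, 211332 and 216001 CPM in 4-week controls and 167369 and 179585 CPM in betaKO. The part of these cell shares in the 4-week values of Ppp1r1a was not tested.

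**Figure D4:**
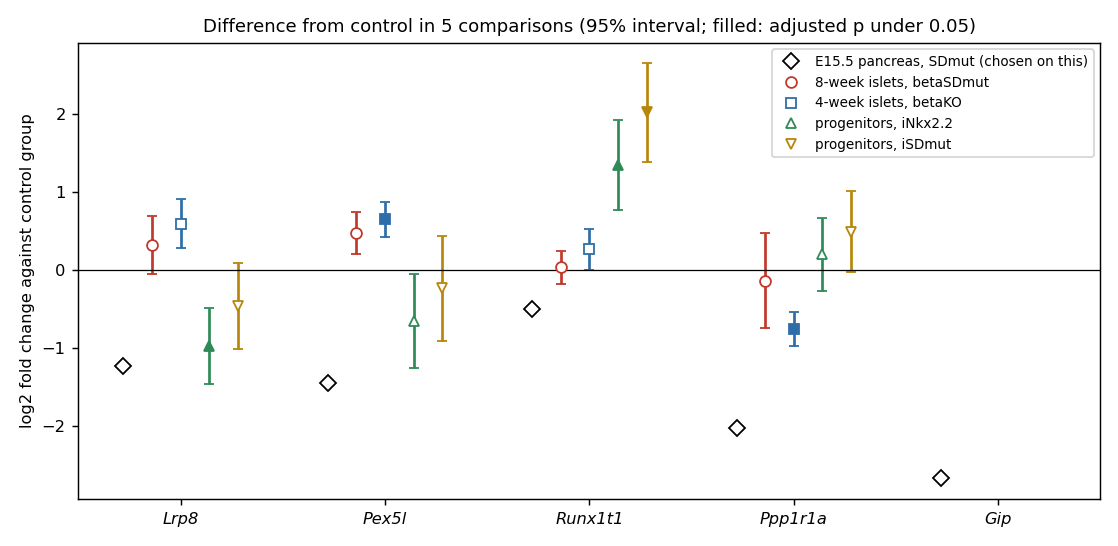
Log2 fold changes of the 5 genes in 5 comparisons: E15.5 SDmut (no interval, since it chose the genes), 8-week betaSDmut, 4-week betaKO, and the iNkx2.2 and iSDmut progenitors against pMN, with bars for 95% intervals, filled symbols for edgeR adjusted p under 0.05 and a line at 0. Gip has a value in E15.5 pancreas alone. All 5 E15.5 points are below 0, while in islets Ppp1r1a alone has an interval wholly below 0, at 4 weeks.

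The genes around the 5 members changed in part. In the incretin list, the receptor genes Gipr and Glp1r were lower in both mutants. Gipr, the receptor for Gip, differed by -2.19 on the log2 scale at 8 weeks (SE 0.178, edgeR adjusted p = 0.00414) and -1.30 at 4 weeks (SE 0.127, edgeR adjusted p = 0.0264). Glp1r, the receptor for the other incretin, gave -1.20 and -0.95. These were the 2 of 11 genes called lower at 8 weeks and 2 of 10 at 4 weeks, where Gcg, the gene of glucagon and of that other incretin, was the 1 called higher (1.06). Of the 12 tested reelin and LDL-receptor genes, 3 were lower at 8 weeks, among them the co-receptor Lrp5 (-1.51) and the apolipoprotein gene Apoe (-0.80), and none was called at 4 weeks. Hcn4, which encodes one of the channels that Pex5l binds, was lower at 4 weeks (-0.92), the 1 called of 8 genes on that list, with none at 8 weeks. Among 17 tested genes of the RUNX1T1 family and corepressor list, Tle4 and Tle3 moved apart at both ages, Tle4 by 1.71 and 1.50 and Tle3 by -1.49 and -0.82. None of 15 phosphatase and kinase genes was called at either age. Of 17 endocrine transcription factors 3 were higher and 3 lower at 8 weeks, with Isl1 at 0.98 and Nkx6-1, a beta-cell factor, at -0.91 on the log2 scale, and none was called at 4 weeks.

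By the highest Pearson correlation of log2 CPM, 1 of 12833 genes was most like each member but Gip over the 9 islet libraries. Group means were left in, so r can follow the 2 ages and 4 groups. The genes were Pja2 for Lrp8 (r = 0.992), Cgrrf1 for Pex5l (0.983), Pef1 for Runx1t1 (0.955) and Mmab for Ppp1r1a (0.971). They are not those of E15.5 pancreas, whose profiles follow the group difference that chose the members. Nothing is read from that contrast. Pex5l and Ppp1r1a ran against each other across islet libraries (r = -0.784, n = 9, libraries of 2 ages and 4 groups). After the group means were removed r was -0.753. In the same order, Lrp8 and Pex5l were at 0.411 and -0.837, and Lrp8 and Ppp1r1a at -0.018 and 0.839. Pairs with Runx1t1 lay between -0.557 and 0.354 before and between -0.513 and 0.130 after.

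**Figure D5:**
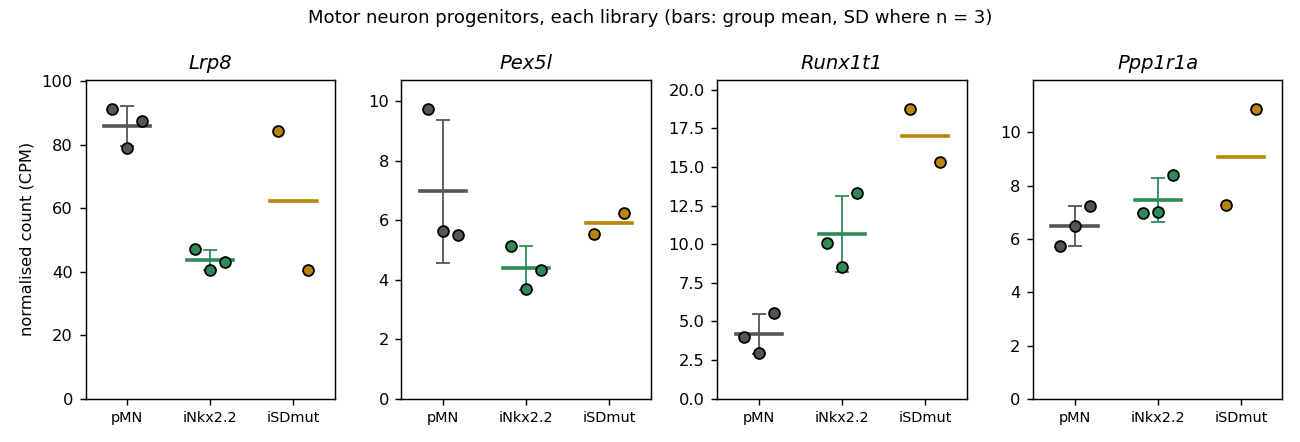
Normalised counts (CPM) of Lrp8, Pex5l, Runx1t1 and Ppp1r1a in each progenitor library, grouped as pMN without doxycycline, iNkx2.2 and iSDmut, with bars for the group mean (and SD where n = 3). Gip is not drawn. Lrp8 is at 40.7 to 47.0 CPM in iNkx2.2 against 79.1 to 91.3 CPM in pMN, and its 2 iSDmut libraries are at 84.3 and 40.5 CPM. Runx1t1 is higher than in pMN after doxycycline with either transgene.

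In motor neuron progenitors, where Nkx2.2 was added rather than mutated, Lrp8 was lower and Runx1t1 higher after doxycycline in cells with the wildtype transgene. Lrp8 fell from 91.3, 79.1 and 87.5 CPM in pMN to 47.0, 40.7 and 43.2 CPM in iNkx2.2, or -0.98 on the log2 scale (SE 0.219, 95% interval -1.47 to -0.49, edgeR adjusted p = 0.0254). The groups did not overlap, as for 15.4% of genes in this direction, yet the call was lost when any 1 of the 6 libraries was left out (edgeR adjusted p from 0.0547 to 0.0935) and without the filter on low counts (edgeR adjusted p = 0.0579). In iSDmut the 2 libraries stood apart, at 84.3 and 40.5 CPM, 1 at the pMN level and 1 at the iNkx2.2 level. The log2 fold change of iSDmut against pMN was -0.47 (SE 0.246, edgeR adjusted p = 0.329), and without iSDmut 1 it was -1.08 (edgeR adjusted p = 0.0117). Against iNkx2.2 it was 0.51 (edgeR adjusted p = 0.423), and 0.95 without iSDmut 2 (edgeR adjusted p = 0.0181), so a single library decided each of these calls. The 6 markers of motor neuron progenitors summed to 1156 to 1249.7 CPM in pMN, 693 to 812 CPM in iNkx2.2 and 686 to 1004 CPM in iSDmut, and their part in the Lrp8 values was not tested.

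Runx1t1 was at 4.01, 2.97 and 5.55 CPM in pMN, at 10.1, 8.51 and 13.3 CPM in iNkx2.2 and at 18.8 and 15.3 CPM in iSDmut. It rose by 1.34 on the log2 scale in iNkx2.2 (SE 0.258, 95% interval 0.76 to 1.92, edgeR adjusted p = 0.0144) and by 2.01 in iSDmut (SE 0.280, 95% interval 1.39 to 2.64, edgeR adjusted p = 0.00722), and no library of either overlapped pMN, as for 16% of genes in iNkx2.2 and 17.2% in iSDmut. The first call was lost without pMN 1 or iNkx2.2 1 (edgeR adjusted p = 0.0678 and 0.0543). The 2 comparisons share the pMN libraries, and iSDmut against iNkx2.2 itself gave 0.68 (95% interval 0.07 to 1.28, edgeR adjusted p = 0.346). The authors' deposited table calls Runx1t1 higher in both (1.36 and 2.08) and Lrp8 lower in iNkx2.2 (-0.93).

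Pex5l and Ppp1r1a did not pass the test in progenitors. Pex5l was at 9.74, 5.64 and 5.50 CPM in pMN, 5.14, 3.67 and 4.34 CPM in iNkx2.2 and 5.54 and 6.23 CPM in iSDmut. pMN 1 stood above the rest, and the log2 fold changes were -0.66 (SE 0.267, edgeR adjusted p = 0.159) and -0.24 (edgeR adjusted p = 0.706). Ppp1r1a was at 5.73 to 7.24 CPM in pMN, 6.96 to 8.41 CPM in iNkx2.2 and 7.28 and 10.9 CPM in iSDmut, with log2 fold changes of 0.20 (edgeR adjusted p = 0.600) and 0.49 (edgeR adjusted p = 0.276). Gip had 1 count in pMN 3, 1 in iSDmut 2 and 0 in the other 6 libraries. By FPKM the order in pMN was Lrp8 at 13.0, Ppp1r1a at 3.02, Pex5l at 2.48 and Runx1t1 at 1.27, means of 3 libraries.

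Of the 4 genes tested, 2 were called in iNkx2.2, where 9.49% of 15653 genes were (4.78% lower, 4.71% higher), 1 in iSDmut, where 3.54% were (1.64% lower, 1.9% higher), and 0 between iSDmut and iNkx2.2, where 0.281% were by edgeR. At an unadjusted p under 0.05 that last comparison gave Runx1t1 alone of the 4, and 12.5% of all genes. Around the members, Gipr rose in both (2.57 and 2.82 on the log2 scale). Among reelin and LDL-receptor genes Vldlr, the other reelin receptor, fell in iNkx2.2 (-1.89) and Lrp1 rose (1.04), while Lrp2 fell in iSDmut (-1.30), 2 and 1 of 13 genes tested. Of 18 genes of the RUNX1T1 family and corepressor list, Tle2 rose in both (3.02 and 2.37), Cbfa2t3, a close relative of Runx1t1, rose in iNkx2.2 (1.76) and Tle1 fell (-1.02). Prkar2b (-0.62) in iNkx2.2 and Adcy8 (-2.55) in iSDmut were the 1 of 15 phosphatase and kinase genes called in each, and no HCN or peroxisomal import gene of 7 was called.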

How the data were processed

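The authors' RNA tables hold raw read counts of genes, per the deposited description. The submitters' processing notes name STAR, Cufflinks, DESeq2, edgeR 3.20.9, limma 3.34.9, bedtools 2.17.0 and the build mm10, with no role. The counting rule and the use of strand are not given in the sources used here, so overlapping or antisense genes may share reads. The authors also deposited FPKM values, used here for levels between genes, and a normalized signal for E15.5 pancreas, not used. Their tables hold log2 fold changes, p-values and a call score of -1, 0 or 1, made with DESeq2 (E15.5) or edgeR and limma, per the deposited description. The deposited ChIP tables hold read counts of both samples at each GEM event and log2 CPM at final sites. The replicate columns of the latter hold almost the same sorted values, to within 0.0338, and their scaling is not given. The input library was not used.

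Counts were tested with edgeR 4.0.16 (TMM, filterByExpr, robust quasi-likelihood test) in R 4.3.3, with Benjamini-Hochberg adjustment over all genes tested and a threshold of 0.05. SE is the log2 fold change over the square root of the F statistic. Each islet comparison used its own age, the difference of effects all 9 islet libraries, and progenitors a model of 3 groups. Alternatives were DESeq2 1.42.0, RLE factors, total library size, no filter, replicate blocks, marker covariates and leaving out each library. Replicate numbers pair pMN with iNkx2.2, where deviations from group means correlated at 0.684, 0.707 and 0.724. The numbers come from the titles, and replicate 3 of both was on lane 4. Profiles were compared by Pearson's r over log2 CPM (prior count 2) among genes with a mean log2 CPM of at least 1. Site sequences were read from GRCm38 with pysam 0.24.0. No pair of libraries agreed within sampling noise.

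The genes named are the 5 members and Nkx2-2 in every comparison, list genes with an adjusted p under 0.05 (some are given only by count), the nearest profiles, and marker lists by their sums. Genes of the authors' list, markers named singly and the values in the closing observations were chosen after their values were seen. The members and lists were chosen with earlier results of these data known, and the lists are not independent of them. In FPKM a gene can be listed at 0.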

Additional observations from a re-analysis of the deposited data

Results flagged for a closer look

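In E15.5 pancreas, SDmut 2 lay far from the other 3 mutants for 2 of the genes. The rule used for a single extreme value in a small group served as a flag, not as a test. For Lrp8 the gap from SDmut 2 to the next library took up 0.920 of the whole range of the group, and for Ppp1r1a 0.870, both above the 95% critical value of Dixon's test for 4 libraries. That critical value is meant for 1 check of 1 group. Here the members and Nkx2-2 were each checked at the highest and the lowest mutant library. Both flags fell on the same library, and the E15.5 values had already chosen the members. No chance rate is therefore given for the flags. SDmut 2 is 1 of the 2 libraries high in skeletal muscle markers and the one high in intestinal markers (208 CPM). The part of muscle or intestine in its Lrp8 and Ppp1r1a values was not tested.

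For Lrp8 and Pex5l every mutant library lay above every control in islets of both ages, and for Runx1t1 in 4-week islets, whereas every mutant lay below every control in E15.5 pancreas, as the choice of genes fixes. Of all genes 23% at 8 weeks and 23.2% at 4 weeks were higher without overlap. The islet log2 fold changes were 0.59 (4 weeks) and 0.32 (8 weeks) for Lrp8, 0.65 and 0.47 for Pex5l, and 0.26 at 4 weeks for Runx1t1, whose groups overlapped at 8 weeks. The difference between embryo and adult was not tested, since these come from separate tables, tissues and alleles, and the genes were chosen for the embryonic direction.

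Among the genes of the lists, a test of the difference itself passed for 2. The islet effect on Lrp1, of the LDL-receptor family, was lower in betaSDmut than in betaKO (log2 difference -0.97, edgeR adjusted p = 0.0388). Allele, age and handling of the islets cannot be told apart there. Pax6, from the list of endocrine transcription factors, was higher in iSDmut than in iNkx2.2 progenitors, by 2.77 on the log2 scale. Those are separate lines, with Nkx2-2 at 245 to 248 CPM in iSDmut and 343 to 378 CPM in iNkx2.2.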

How the results depend on the processing

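The low number of libraries limits every comparison, and Gip and Pex5l rest on few counts in embryos. Genes called by edgeR in E15.5 pancreas numbered 1, against 2 with total library size, 28 with DESeq2 (18 lower), 4 with a muscle covariate, 0 with the title number as a term and 0 to 2 with 1 library left out. In 8-week islets the 1224 became 1999 with DESeq2, 814 with the replicate block, 2796 with an Xist covariate and 37 to 2765 with 1 library left out. Called members there went from 0 to 1 (Pex5l) with total library size, no filter, DESeq2, either covariate or all 9 libraries, and were 0 to 1 with 1 library left out. In 4-week islets the 233 became 127 with total library size, 372 with no filter, 798 with DESeq2, 428 with all 9 libraries and 4 to 478 with 1 left out. The 2 called members became 0 with total library size and 1 with all 9 libraries, and reached 3 where Lrp8 was called as well. With 1 library left out, the lone library of a group was assumed to vary like the others. For the difference of the islet effects the 194 became 663 with DESeq2, 56 with the replicate block, 91 with the acinar covariate and 0 to 343 with 1 left out. For iNkx2.2 against pMN the 1486 became 4629 with the replicate block, 960 on lane 2 alone and 412 to 1604 with 1 left out, and the 2 members became 1 with no filter and 0 to 2 with 1 left out. For iSDmut against pMN the 554 became 1349 with DESeq2, 2626 with the replicate block, 295 with 2 groups only and 171 to 471 with 1 left out, and the 1 member became 1 to 2. For iSDmut against iNkx2.2 the 44 became 145 with no filter, 496 with DESeq2, 528 with the replicate block, 13 with 2 groups only and 1 to 467 with 1 left out, and members became 1 (Runx1t1) with the block and 0 to 1 with 1 left out.

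Signs turned in few places. Ppp1r1a at 8 weeks was 0.0053 with the replicate block, and with the acinar covariate the difference of the islet effects was 0.090 for Pex5l and -0.052 for Ppp1r1a. With 1 library left out, the log2 fold change ran from -0.054 to 0.12 for Runx1t1 and from -0.41 to 0.038 for Ppp1r1a at 8 weeks, and from -0.38 to 0.086 for Pex5l in iSDmut. Against iNkx2.2 it ran from -0.11 to 0.95 for Lrp8 and from -0.036 to 0.55 for Ppp1r1a in iSDmut. For Nkx2-2 it ran from -0.26 to 0.066 at E15.5, from -0.21 to 0.011 at 8 weeks, from -0.47 to 0.053 at 4 weeks and from -0.14 to 0.38 in the difference of the islet effects. Outside pMN and iNkx2.2, replicate numbers were not taken as pairs. Same-numbered libraries correlated at -0.0385 and -0.0490 at 8 weeks, 0.0650 and 0.0650 at 4 weeks, 0.422 and 0.0342 for pMN with iSDmut, and 0.379 and 0.123 for iNkx2.2 with iSDmut, where 2 shared numbers are too few to decide. The Runx1t1 call between iSDmut and iNkx2.2 rests on that block (0.89, edgeR adjusted p = 0.0125), and no block changed another call on the 5 genes. The cause of these shifts was not tested.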

Other observations

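Hormone genes of E15.5 pancreas differed in direction. Ghrl, the ghrelin gene of the epsilon cell, was at 45.3, 21.9 and 18.0 CPM in controls and at 73.3, 47.9, 104 and 61.7 CPM in SDmut, so that every mutant lay above every control, as for 1.61% of genes, the opposite of Gip (log2 fold change 1.34, SE 0.386, edgeR adjusted p = 1.00). Cck, a gut hormone gene, was lower by value (log2 fold change -0.85, SE 0.320, edgeR adjusted p = 1.00), with groups that overlapped. Sct, the secretin gene, was at 2.76, 1.48 and 1.45 CPM in controls and at 1.19, 3.81, 1.81 and 1.50 CPM in SDmut, and also overlapped. Glp1r, the incretin receptor gene at rank 3 among the lower genes of the authors' deposited table, had a log2 fold change of -3.10 here (SE 0.382, edgeR adjusted p = 0.263). These genes were picked after their values were seen.

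Around the final Nkx2.2 sites of MIN6 cells the NK2 core was no more common at the centre than beside it. AAGTG was in 6.50% of the 6473 central windows of 31 bases and in 6.67% of windows of the same length 1 kb to the side. GGCAAC or AGCAAC was in 33.7% of the central windows and in 2.52% of those to the side. Of the sites near the 5 genes, the Runx1t1 site alone held one of these hexamers in its central window, and it was also the site with the highest ChIP signal of the 4. The hexamers were picked after counts of several words had been seen, and no further site property was compared.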
